A study of Drosophila melanogaster with 3 samples.

Results

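The nuclear genes for the proteins of the mitochondrial ribosome were followed in a ChIP-seq study of the transcription factor Xbp1 in Drosophila melanogaster embryos. They were taken as the protein-coding genes whose symbol starts with mRpL or mRpS, which gave 73 of 13945 protein-coding genes on the main chromosome arms, 47 named for the large and 26 for the small subunit. Of these, 44 (60.3%, exact 95% confidence interval 48.1 to 71.5%) had an Xbp1-GFP peak at the promoter, against 30.4% of all protein-coding genes. The peaks are those the authors kept after thresholding on the irreproducible discovery rate (IDR). A gene is called bound where the summit of such a peak was no farther than 500 bp from any of its annotated starts. The study's only group was 3 biological replicates of mixed-sex embryos, 0 to 24 h old. They came from a single transgenic line that stably expresses Xbp1 fused to GFP at its C terminus, and the tag was precipitated with an antibody against GFP. Whole embryos were used, so a peak cannot be assigned to a tissue, and there was no second genotype or treatment. The control sample was not analysed here, and how much signal active promoters give without specific binding was not tested. Read totals were not analysed either, so the depth is unknown and the intervals cover counting error over genes only.

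Mitochondria keep a small genome of their own, and the ribosomes that translate its messenger RNAs are built from RNA encoded there and proteins encoded in the nucleus. The small subunit reads the messenger RNA, and the large subunit joins the amino acids and feeds the new chain, usually a membrane subunit of the respiratory chain, to the inner membrane. Xbp1 belongs to the bZIP factors and acts in the unfolded protein response, which raises the folding capacity of the endoplasmic reticulum. Its mRNA is spliced on a signal from the sensor Ire1 before the active protein can be made. Genes of the mitochondrial ribosome are used in nearly all cells and are not classical members of that response.

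Many of these genes lie head to head with a neighbour, and their peaks mostly lay in the short stretch between both starts. The sequences below are from the Release 6 genome (dm6), 50 bp to each side of the thresholded summit, on the strand of the mitochondrial ribosomal protein gene and 5′ to 3′. They are shown for 6 of the 8 strongest members, and capitals mark ACGTG, the core of the UPR element through which XBP1 acts in mammals, in either orientation. The core was present in the windows of mRpL24 and mRpL20 and in none of the other four.
mRpS10, chr3R:15229472-15229572, plus strand: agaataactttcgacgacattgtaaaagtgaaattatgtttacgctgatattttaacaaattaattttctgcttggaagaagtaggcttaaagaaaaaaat
mRpS23, chr2L:13835407-13835507, minus strand: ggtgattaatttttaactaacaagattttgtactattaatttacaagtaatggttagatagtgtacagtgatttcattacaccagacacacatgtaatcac
mRpL24, chr2L:4945464-4945564, minus strand: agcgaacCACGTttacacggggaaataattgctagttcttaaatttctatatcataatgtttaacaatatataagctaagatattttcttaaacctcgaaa
mRpS2, chr2L:4850531-4850631, minus strand: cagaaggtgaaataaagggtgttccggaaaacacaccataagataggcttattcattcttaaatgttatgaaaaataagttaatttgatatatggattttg
mRpL20, chr3L:13018065-13018165, minus strand: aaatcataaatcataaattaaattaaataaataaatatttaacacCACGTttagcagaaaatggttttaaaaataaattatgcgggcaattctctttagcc
mRpS6, chr3L:4364397-4364497, plus strand: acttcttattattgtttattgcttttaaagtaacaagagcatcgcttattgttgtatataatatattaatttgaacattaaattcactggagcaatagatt

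A different motif was common near the gene starts. The 6-base E-box CAGCTG reads the same on both strands, and it is in capitals in the following promoters, which run from 120 bp upstream to 30 bp downstream of the outermost start (5′ to 3′, dm6). The first 4 genes were bound, mRpL19 being the weakest of all bound members, and mRpL40 and mRpS33 were unbound. All of them were picked from the members that hold an E-box in this stretch. Its presence here was thus given by the choice, and its position was limited by it. Within the stretch it lay beside the start in the bound and in the unbound genes shown.
mRpS2, chr2L:4850390-4850539, minus strand: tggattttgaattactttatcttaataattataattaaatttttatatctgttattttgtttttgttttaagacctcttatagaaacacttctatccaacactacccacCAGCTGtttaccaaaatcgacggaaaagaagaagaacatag
mRpS6, chr3L:4364430-4364579, plus strand: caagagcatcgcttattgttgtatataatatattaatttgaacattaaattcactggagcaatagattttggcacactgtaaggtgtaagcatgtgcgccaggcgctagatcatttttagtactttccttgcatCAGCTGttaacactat
mRpL35, chr3R:22023407-22023556, plus strand: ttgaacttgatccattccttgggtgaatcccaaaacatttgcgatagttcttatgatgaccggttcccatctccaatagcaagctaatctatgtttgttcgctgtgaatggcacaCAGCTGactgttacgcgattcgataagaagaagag
mRpL19, chr3R:8673989-8674138, plus strand: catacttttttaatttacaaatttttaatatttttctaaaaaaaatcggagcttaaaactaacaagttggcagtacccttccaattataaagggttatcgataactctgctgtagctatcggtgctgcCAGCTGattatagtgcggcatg
mRpL40, chr3R:11407798-11407947, plus strand: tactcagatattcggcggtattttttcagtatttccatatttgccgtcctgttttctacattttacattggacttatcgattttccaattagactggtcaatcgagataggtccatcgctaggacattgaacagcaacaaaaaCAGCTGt
mRpS33, chr3R:16436568-16436717, minus strand: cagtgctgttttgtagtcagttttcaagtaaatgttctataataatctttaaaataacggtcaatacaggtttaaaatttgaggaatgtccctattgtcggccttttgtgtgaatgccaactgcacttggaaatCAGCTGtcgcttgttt

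Both subunits were bound at similar shares. Of the genes named for the large subunit 29 of 47 were bound (61.7%, interval 46.4 to 75.5%), and of those named for the small subunit 15 of 26 (57.7%, interval 36.9 to 76.6%). No peak served a pair of members. At 3 of the 44, mRpL17, mRpS21 and mRpS26, more than 1 thresholded summit lay within 500 bp, and the values of a gene are those of its strongest promoter peak. With every replicate reduced to as many peaks as the thresholded list holds, its 7291 strongest, 43, 45 and 40 members had a promoter peak in replicates 1, 2 and 3, a mean of 42.7 ± 2.52 (SD, n = 3). Over all protein-coding genes the shares in these lists were 29.6%, 32.8% and 28.0%. The members' shares in the same lists were 58.9%, 61.6% and 54.8%, above the background in every replicate. The full replicate lists, of 21686, 30000 and 23357 peaks including background entries, held promoter peaks of 56, 68 and 53 members, against 47.1%, 56.7% and 43.2% of all genes. In all 3 full lists 49 members had a promoter peak, against 36.4% of all genes, and in all 3 lists of equal length 37 had one, against 24.0%.

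Signal at these promoters was spread over the whole range of the list, and most of it was moderate. The median signal of the 44 bound members was 350 on the scale of the authors' peak caller (range 175 to 5256), against 403 for all 4242 bound genes. A gene's percentile is its place by signal among all protein-coding genes with a promoter peak in the same list. The median percentile was 43.5 for bound members, 35.5 for the large and 53.0 for the small subunit, where the median of all bound genes is at the middle by construction. In the replicate lists of equal length it was 42.9, 43.8 and 45.2, a mean of 44.0 ± 1.17 (SD, n = 3). Of the 44, 6 were above the 90th percentile of all bound genes and 27 were at or below the 50th. The share of all bound genes on each side of these limits is likewise fixed by construction. In the full replicate lists, which also hold weak entries, the members' median percentile was 53.4, 59.4 and 54.8, so their place relative to other genes depended on how far down the list peaks were counted.

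A few members had peaks among the strongest of the genome. The highest lay at mRpS10 (FBgn0038307, 3R from 15229665 to 15230516, plus strand), a protein of the head of the small subunit. Its peak spanned 15229322 to 15229746 with a pooled signal of 5256, rank 9 of 7291. In the replicates its signal was 2489, 1425 and 1373, at ranks 6, 15 and 7 of those lists. It was therefore near the top of every list, although signal was not compared between lists, since its scale is not stated. The summit was 143 bp upstream of the mRpS10 start and 114 bp upstream of Art3, an arginine methyltransferase gene that starts 257 bp away on the other strand. The second small-subunit gene, mRpS23 (FBgn0260407, 2L from 13834250 to 13835072, minus strand), had a signal of 4477 (rank 16), with 2004, 1359 and 1152 in the replicates. The summit, at 13835457, was 385 bp upstream of mRpS23 but 107 bp upstream of CenG1A, a GTPase-activating protein gene, so it lay closer to the neighbour. This was also the largest distance among the bound members.

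The strongest large-subunit peak lay at mRpL41 (FBgn0034001, 2R from 15217024 to 15217617, minus strand), with a signal of 4611 at rank 15. The replicate signals were 2132, 1363 and 1145. It was 1 of only 4 bound members whose summit had no other protein-coding start within 500 bp, and it lay 145 bp upstream. At mRpL23 (FBgn0035335, 3L), a homolog of the bacterial protein at the exit of the peptide tunnel, the signal was 3411 (rank 29), with 1483, 976 and 958 in the replicates. Its summit lay 59 bp downstream of the start, in the 5′ UTR, and 109 bp upstream of CG9004. These 4 genes were the only members among the 100 strongest thresholded peaks, and all 4 were within the first 43 ranks of every replicate list.

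The next members were weaker, and most kept similar ranks in the replicates. The tunnel-exit protein gene mRpL24 (FBgn0031651, 2L) had a signal of 1579 at rank 228, with 724, 479 and 369 in the replicates. At mRpS2 (FBgn0031639, 2L), a small-subunit gene, it was 1374 at rank 302, with 622, 446 and 321. These 2 genes shared a layout, with the summit 153 bp upstream of mRpL24 and 65 bp upstream of betaggt-I, a subunit of a protein prenyltransferase, and 162 bp upstream of mRpS2 and 60 bp upstream of Mon1, a factor of endosome maturation. At mRpL20 (FBgn0036335, 3L) the signal was 1050.0 (rank 531), with 452, 334 and 282 in the replicates, in the interval shared with Icmt, an endoplasmic reticulum methyltransferase of prenylated proteins. The small-subunit gene mRpS6 (FBgn0035534, 3L), next to the F-BAR gene Cip4, had 894 (rank 741), with 360.0, 302 and 222. At mRpL34 (FBgn0083983, 2R), next to the dystroglycan gene Dg, it was 804 (rank 909), with 411, 216 and 181. The tenth was mRpL37 (FBgn0261380, 3R), with 745 (rank 1056) and 376, 158 and 203. Here replicate 2 stood lower, at rank 2161 of its list against 827 and 831 in replicates 1 and 3. The 34 other bound members had signals from 629.8 at mRpL4, whose bacterial counterpart reaches into the peptide tunnel, to 175 at mRpL19, the weakest at rank 7156. The lowest value of the whole thresholded list was 172, so mRpL19 was bound by a narrow margin.

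**Figure D1:**
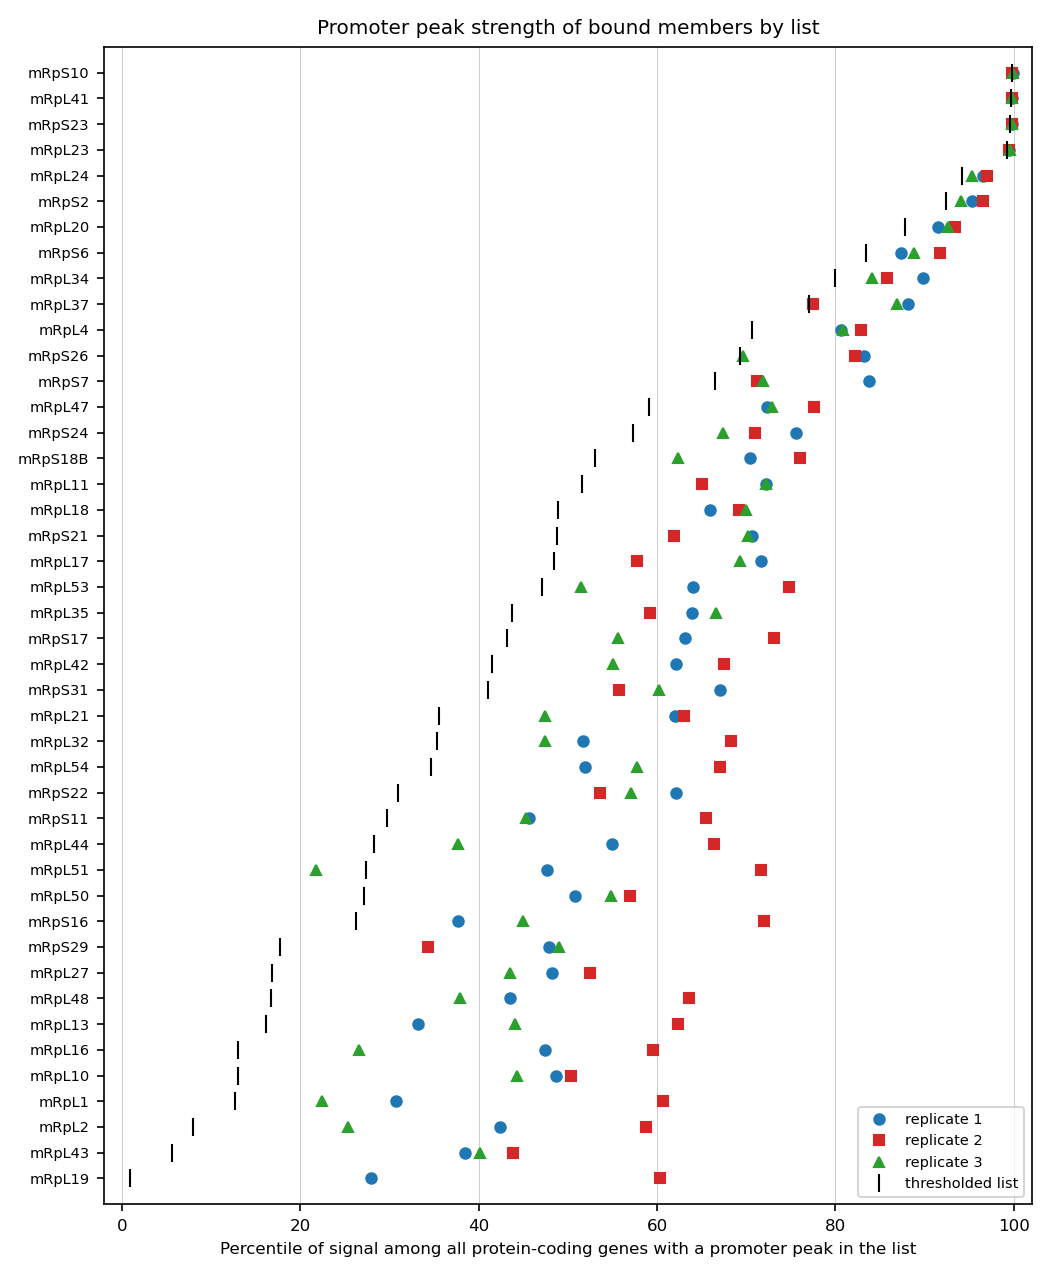
Percentile of signal (horizontal axis, 0 to 100) among all protein-coding genes with a promoter peak in the same list, for the 44 bound members from strongest (top) to weakest. Circles, squares and triangles are the full lists of replicates 1, 2 and 3, and the black bar is the thresholded list, whose shorter length sets its percentiles lower. The first members stay close together, and the replicates spread apart among the weaker ones, such as mRpL51 at 47.7, 71.7 and 21.7.

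Repeatability was high for strong members and lower for weak ones. Of the 44 bound members, 37 had a promoter peak in all 3 replicate lists of equal length, 5 in a pair of them (mRpL51, mRpS29, mRpL13, mRpL16 and mRpL2) and 2, mRpL1 and mRpL19, only in that of replicate 2. In the full lists 43 had a peak in all 3, and mRpL19 had none in replicate 3. The thresholded list was derived from these replicates, so this overlap is partly given by construction. Among bound members the largest differences in percentile were at mRpL51 (47.7, 71.7 and 21.7 in the full lists of replicates 1, 2 and 3), mRpL1 (30.7, 60.7 and 22.4) and mRpS16 (37.7, 72.0 and 44.9). Their signals in replicates 1, 2 and 3 were 97.3, 133 and 26.8 at mRpL51 (thresholded 270.2), 61.2, 98.6 and 27.2 at mRpL1 (212) and 75.1, 134 and 51.1 at mRpS16 (266). Replicate 2 was highest in percentile at each. Of the 43 bound members in all 3 full lists it was highest at 28, replicate 1 at 10 and replicate 3 at 5. The list of replicate 2 was also the longest, with promoter peaks of 7900 genes, against 6563 and 6020 in replicates 1 and 3. A list with more weak entries gives higher percentiles by construction, and how much of these gaps came from that was not tested. In the lists of equal length the members' median percentile was highest in replicate 3, at 45.2, against 42.9 and 43.8 in replicates 1 and 2. Across the 43 genes, Spearman's rho of signal was 0.952 between replicates 1 and 3, 0.750 between 1 and 2, and 0.717 between 2 and 3, given as a description since genes of the same libraries are not replicates. Positions repeated well, with replicate summits within 50 bp of the thresholded summit at 40 of 44, 37 of 44 and 39 of 43 members and median shifts of 11.5, 10.5 and 13.0 bp.

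Peaks sat just upstream of the start. The median distance from the summit to the member's nearest start was 120.5 bp (interquartile range 67.3 to 211, whole range 16 to 385 bp), against 126 bp (62 to 231) for all bound genes. Summits were upstream of it at 42 of 44 members (95.5%), against 89.1% of bound genes, the exceptions being mRpL23 and mRpL42. By annotation 36 summits lay between genes, 7 in a 5′ UTR and 1, at mRpL53, in an intron. The member nearest inside the limit of 500 bp was mRpS23 at 385 bp, and those just outside were mRpS25 at 506 bp and mRpL33 at 585 bp, both counted as unbound. In the full lists mRpL33 had a promoter peak in replicate 2 alone (signal 16.7), and mRpS25 had none.

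Most peaks at these genes cannot be assigned to the mitochondrial ribosomal protein gene alone. At 40 of 44 bound members (90.9%, interval 78.3 to 97.5%) the summit was also within 500 bp of a start of another protein-coding gene, against 57.8% of all bound genes. The neighbour was divergent, on the other strand with both outermost starts pointing apart, at 38 of 44 (86.4%), against 49.8% of bound genes. These 38 include all 15 bound small-subunit genes. The others that shared a peak were mRpL13, which starts at the same position as CG10602, and mRpL53, which starts at the same position as CG33155. The mRpL53 summit was also 66 bp upstream of a start of AGO1, an Argonaute gene of the microRNA pathway, on the other strand. That start points away from mRpL53, but by its outermost start AGO1 was not counted as divergent. No neighbour was in reach at mRpL41, mRpL4, mRpL10 and mRpL19. Of the 38 divergent pairs 31 had the summit between the outermost starts, which were a median of 285.5 bp apart (20 to 637 bp).

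Within the 40 shared peaks the neighbour was more often the closer gene. The summit was nearer to the start of the member at 15, nearer to that of a neighbour at 24 and at equal distance at 1, mRpL13. The member's own start was thus nearer in 37.5% of shared peaks, against 45.7% of the 2451 shared peaks counted over all bound genes, a small gap for 40 genes. When each peak was given to its nearest gene only, 22 of the 73 members were bound (30.1%), against 22.8% of all genes, so the count depends on letting a shared peak stand for both genes. Among the members that remained the closest gene were mRpS6, 103 bp from the summit against 345 bp for Cip4, and mRpL50, 65 bp against 390 bp for the meiotic gene mei-P22. At mRpL17 the strongest summit (signal 389) was 311 bp away but only 88 bp from Tudor-SN, a nuclease of the silencing complex. A weaker peak (207) had its summit 109 bp from the mRpL17 start and nearer to it. At mRpS26 the strongest summit (605) was 257 bp away and a weaker one (279) 46 bp away. At mRpS17 it was 363 bp away but 73 bp from Nop60B, a pseudouridine synthase.

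Some of the shared intervals paired the ribosomal gene with a second gene of mitochondria. At mRpL35 (signal 352) the neighbour was Mitofilin, an organizer of the cristae, with the summit 82 bp upstream of mRpL35 and 110 bp upstream of Mitofilin. At mRpL11 (415) it was HtrA2, a protease of the intermembrane space, at mRpL18 (393) it was Taz, the cardiolipin remodelling enzyme, and at mRpL32 (307) it was qless, which makes the side chain of coenzyme Q. Other neighbours serve other functions, such as the cell-cycle kinase Cdk1 at mRpS7 (561), the Wnt pathway regulator Apc2 at mRpS24 (461), the chaperone gene Droj2 at mRpS21 (393), the chromatin factors rept at mRpL21 (308) and Snr1 at mRpL44 (274), and the DNA repair gene rad50 at mRpS29 (230). The mRpS29 protein is a GTP-binding protein of the small subunit, known in mammals as DAP3.

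**Figure D2:**
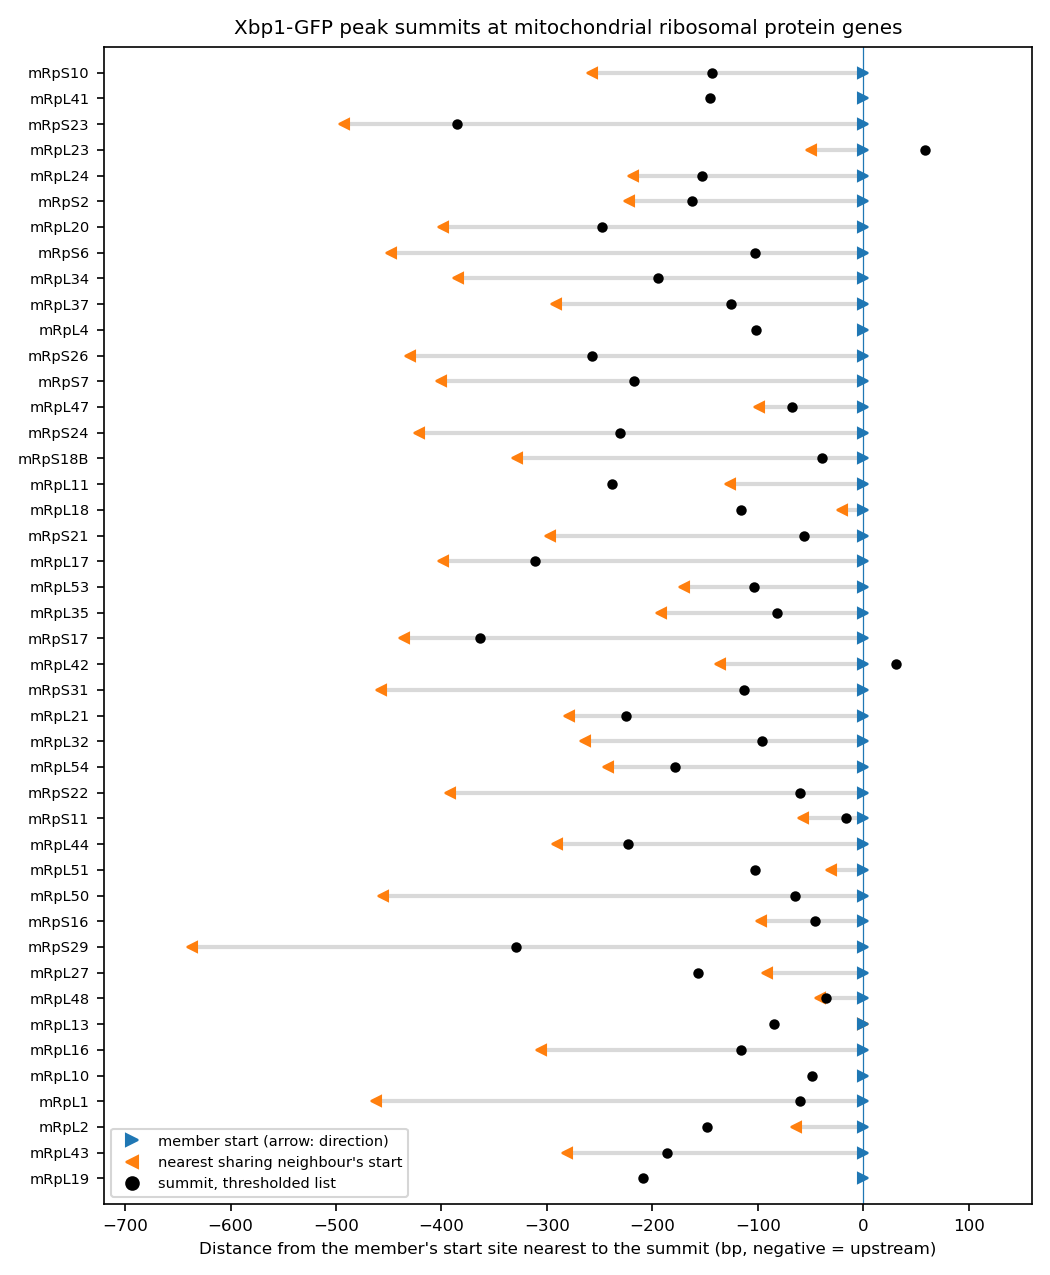
Thresholded summits (black circles) at the 44 bound members, strongest at the top, by distance in bp from the member's nearest start (blue arrowhead at 0, negative values upstream), with the start of the nearest gene that shares the peak as an orange arrowhead. At 42 members the summit is upstream of the start, and at most of them it lies on the grey line between both starts. The start of CG10602 coincides with that of mRpL13 and is hidden there.

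The head-to-head layout was itself common among these genes. A divergent partner, a protein-coding gene whose outermost start faces away within 1000 bp, was present at 56 of 73 members (76.7%), against 33.3% of all protein-coding genes. It was present at 59.1% of cytosolic ribosomal protein genes and at 38 of 76 genes of oxidative phosphorylation. With a partner 40 of 56 members were bound (71.4%, interval 57.8 to 82.7%), against 52.6% of all genes with one. Without a partner 4 of 17 were bound (23.5%, interval 6.81 to 49.9%), against 19.3% of such genes in general. The 17 members without a partner were thus close to the background for their layout, and the members with one were above theirs. Cytosolic ribosomal protein genes, by contrast, were bound at 49 of 55 with a partner and 28 of 38 without.

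By the distance between the outermost starts, 9 of 17 members with a partner within 100 bp were bound (52.9%), against 48.2% of all such genes. With a partner over 100 and up to 300 bp away it was 13 of 14 (92.9%), against 58.4%. With one over 300 and up to 1000 bp away it was 18 of 25 (72.0%), against 50.1%. The middle class therefore stood highest both among members and over all genes, and the members' excess was small in the closest class.

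**Figure D3:**
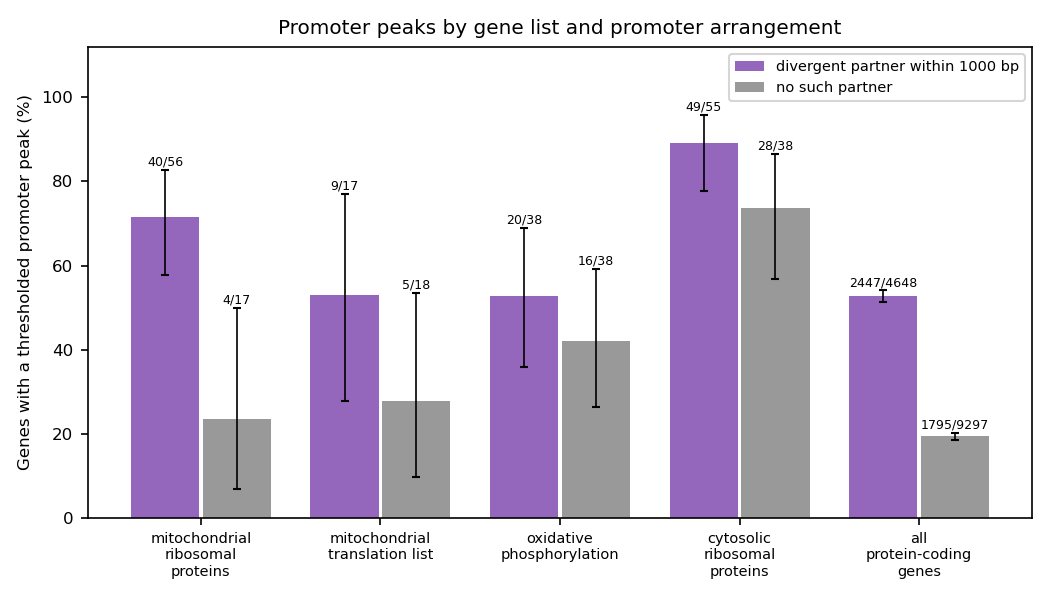
Share of genes with a thresholded promoter peak (vertical axis, percent, with exact 95% intervals) among genes with a divergent partner within 1000 bp (purple) and without (grey), for 5 sets of genes, with counts above the bars. Mitochondrial ribosomal protein genes reach 71.4% with a partner and 23.5% without, and cytosolic ribosomal protein genes are high in both classes.

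Binding was uneven over the chromosome arms. On 2L 11 of 12 members were bound (91.7%, interval 61.5 to 99.8%), against 29.2% of the arm's protein-coding genes, and on 2R 10 of 12 (83.3%), against 28.7%. On 3L it was 9 of 17 (52.9%), against 31.1%, and on 3R 13 of 21 (61.9%), against 32.6%. On the X it was 1 of 11 (9.09%, interval 0.230 to 41.3%), against 29.9%. The lone bound gene of the X was mRpL16, which lies head to head with the histone methyltransferase gene trr and had a signal of 214. Each replicate list of equal length also gave 1 of 11, mRpL16 in replicates 1 and 2 and mRpL3 in replicate 3. The arms other than the X together had 43 of 62 bound (69.4%, interval 56.3 to 80.4%), against 30.5% of their genes. Of the 11 members on the X 8 had a divergent partner. On the same arm 15 of 15 cytosolic ribosomal protein genes and 7 of 12 genes of oxidative phosphorylation were bound. No test of the arm was run. It was singled out after its values were seen, and 11 genes give a wide interval.

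**Figure D4:**
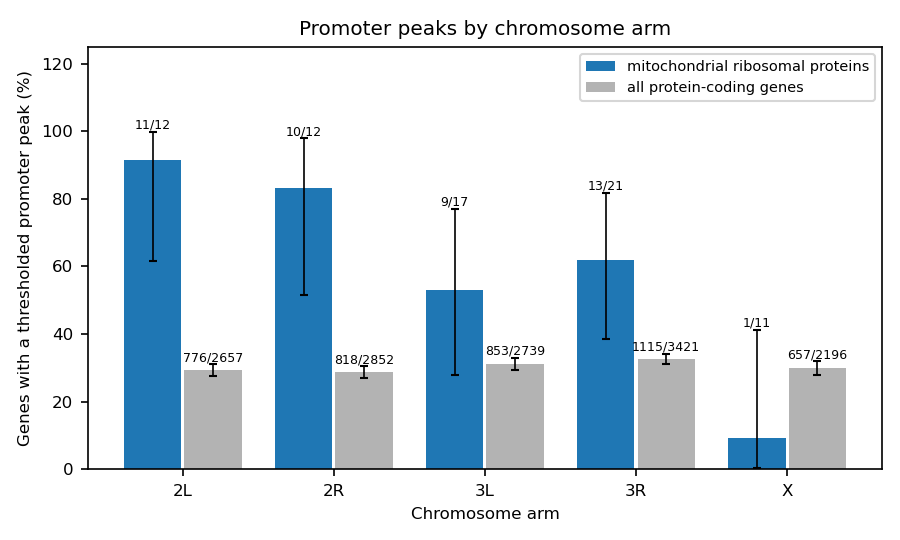
Share of genes with a thresholded promoter peak (vertical axis, percent, with exact 95% intervals) on each large chromosome arm, for mitochondrial ribosomal protein genes (blue) and all protein-coding genes of the arm (grey), with counts above the bars. The members range from 91.7% on 2L to 9.09% on the X, while all genes stay between 28.7% and 32.6%.

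The 29 unbound members include proteins of both subunits. On the X they were mRpL3 and mRpL14, homologs of core proteins of the bacterial large subunit, with mRpL22, mRpL30, mRpL33, mRpL38, mRpL49, mRpS14, mRpS25 and mRpS30. On 3L they were mRpL12, a protein of the stalk that recruits translation factors, mRpL15, mRpL36, mRpL39, mRpL46, mRpS5, mRpS34 and mRpS35, and on 3R mRpL9, mRpL40, mRpL45, mRpL55, mRpS9, mRpS18A, mRpS18C and mRpS33. On 2R they were mRpL52 and mRpS28, and on 2L mRpL28. In mammals the counterparts of mRpS30 and mRpS18A sit in the large subunit, so the symbols do not give the subunit in every case. Off the X, the 39 bound members with a partner had a median of 290 bp between starts, with 9 of them within 100 bp. The 9 unbound ones with a partner had a median of 50 bp, with 8 of them within 100 bp. On the X the 7 unbound members with a partner were 395 to 695 bp from it.

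Many unbound members had entries in the longer lists, as did many other genes. The authors' pooled list, of 27099 entries with background, held a promoter entry for 20 of the 29, of which 11 had a q-value of 0.05 or less. At that q-value it held 39.8% of all protein-coding genes, bound ones included. The share among all unbound genes was not computed, so whether unbound members differ from them was not tested. The highest was mRpS18A, with a pooled signal of 164 and a q-value of 0.000324, just under the lowest thresholded signal of 172. At mRpL3 and mRpS30 the q-value was 0.05 or less in all 3 replicates, although neither was in the thresholded list. No promoter entry of that list was found for mRpL14, mRpL15, mRpL30, mRpL33, mRpL40, mRpL46, mRpS25, mRpS28 and mRpS35. In the equal-length lists 24 unbound members had no promoter peak in any replicate and 5 had one in a single replicate, namely mRpL12 and mRpL55 in replicate 2, mRpL36 and mRpS5 in replicate 1 and mRpL3 in replicate 3. In the full lists mRpL40, mRpS25 and mRpS35 had none in any replicate, 12 had one in a single list, 8 in 2 lists and 6 in all 3. The full lists of replicates 1, 2 and 3 held promoter peaks of 47.1%, 56.7% and 43.2% of all protein-coding genes, bound ones included. The nearest thresholded summit to mRpS5 was 578647 bp away, so that gene lies in a long stretch without thresholded peaks.

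The E-box CAGCTG was common in these promoters, whether bound or not. In the 300 bp from 250 bp upstream to 50 bp downstream of the outermost start, 40 of 73 members held it (54.8%, interval 42.7 to 66.5%), against 17.7% of all protein-coding genes. It was in 25 of 44 bound members (56.8%) and 15 of 29 unbound ones (51.7%), nearly the same share. Genes with a divergent partner had it at 30 of 56 members (53.6%), against 21.7% of all such genes, and genes without a partner at 10 of 17 members (58.8%), against 15.7%. On the X 3 of 11 members held it (27.3%). Large-subunit genes had it at 27 of 47 and small-subunit genes at 13 of 26. It was in 9.68% of cytosolic ribosomal protein promoters and in 26.3% of those of oxidative phosphorylation.

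Within the stretch searched, the E-boxes lay mostly close to the start. Among 45 E-boxes the median position was 5 bp downstream, in a stretch that reached 250 bp upstream but only 50 bp downstream. Of the 73 members, 36 had one between 60 bp upstream of the start and the downstream end of the stretch. This count was not made over all genes. Their share also peaked at the start, at 2.52% of promoters from 10 bp upstream to 10 bp downstream, against 13.7% of members. Those of bound members lay a median of 131 bp from the thresholded summit, and the closest of the 30 was 51 bp away. E-box and summit were thus separate positions in the same promoter. No E-box was found in the 44 windows around the summits (50 bp on either side), against 5.69% of the 3478 promoter peaks of the thresholded list, and a count of 0 in 44, taken as fewer than 3 counts, allows a share of up to 6.82%. With 100 bp to each side it was in 11 of 44 (25%), against 12.8%.

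**Figure D5:**
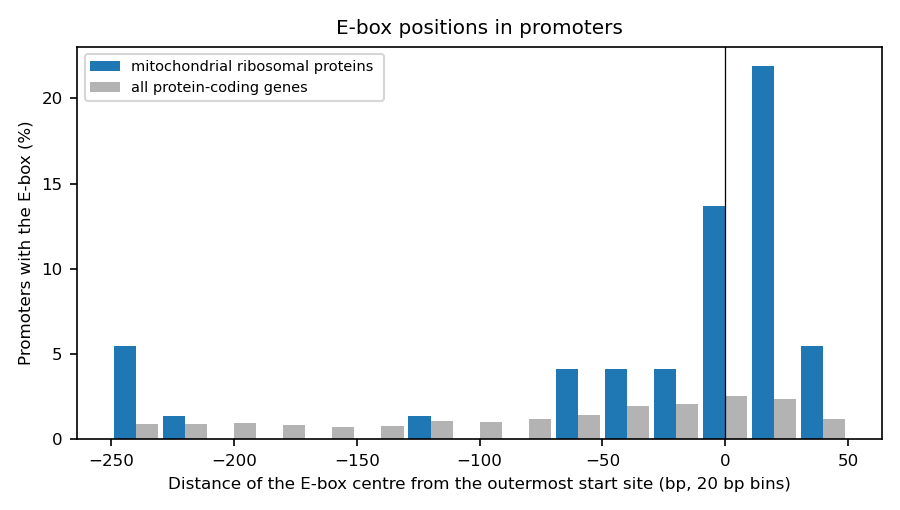
Share of promoters with a CAGCTG E-box (vertical axis, percent) by distance from the outermost start in bp (horizontal axis), for the 73 mitochondrial ribosomal protein genes (blue) and all 13945 protein-coding genes (grey). The members' share is highest from 10 to 30 bp downstream of the start, at 21.9% against 2.34% of all genes.

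The full UPR element was absent from these summits, and its core was near the background share. The 8-base UPR element TGACGTGG was in none of the 44 windows of 50 bp to each side, against 0.690% of promoter peaks, and the cAMP response element TGACGTCA in none, against 0.316%. Both shares are under the same limit of 6.82%, that is 3 counts of 44, so a difference was not detectable with 44 peaks. The core ACGTG was in 5 windows (11.4%), those of mRpL16, mRpL2, mRpL20, mRpL24 and mRpL27, against 9.92%, a share near the background. The short motif CCACG, which can overlap ACGTG, was in 8 (18.2%), against 7.71%, a higher share whose difference was not tested. The windows of mRpL16, mRpL20 and mRpL24 held both motifs. Those of mRpL1, mRpL21, mRpS7, mRpS11 and mRpS21 held CCACG without ACGTG. The DNA replication-related element TATCGATA, the site of the housekeeping promoter factor DREF, was in 3 windows (6.82%), those of mRpL10, mRpS17 and mRpS18B, against 5.43%. In the 300 bp promoters it was in 10 of 44 bound members (22.7%), against 15.7% of all bound genes. There it was also in 5 of 29 unbound members (17.2%), where the share of all genes was 9.36%, and these differences were not tested. All motifs were searched on both strands, and a match is a match of letters only. The windows were rich in A and T, with a median GC content of 31.7% (interquartile range 27.7 to 40.8%) at members' summits, against 36.6% (29.7 to 43.6%) at all promoter peaks. Of the other motifs, GGTCACACT was in 2 windows (4.55%), against 2.01% of promoter peaks, GAGAG in 4 (9.09%), against 9.32%, and TATAAA in 7 (15.9%), against 17.3%. None held CATCNCTA, against 4.89%, CCGGAAG, against 0.431%, or GCATGCGC, against 0.173%.

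Other genes of mitochondrial gene expression were described beside them. A further list held 35 genes, mostly for mitochondrial translation factors, aminoacyl-tRNA synthetases and transcription factors. Of these 14 were bound (40.0%, interval 23.9 to 57.9%), with 14, 15 and 13 in the replicate lists of equal length. Their interval overlaps that of the ribosomal proteins and includes the 30.4% of all genes. The list also holds the ribosomal protein genes tko and bonsai, and ClpX and ND-ACP. ND-ACP is counted among the genes of oxidative phosphorylation as well. The strongest were mTerf5 (527), of the mitochondrial transcription termination factor family, PolrMT, the mitochondrial RNA polymerase (314), and PheRS-m, a tRNA synthetase (313), none near the leading ribosomal protein genes. A pair of mitochondrial ribosomal proteins have names outside the symbol rule. Of these, tko, the S12 protein of the small subunit, lies on the X and was bound, with a signal of 280 (rank 4271), replicate signals of 92.3, 127 and 51.3 and a summit 21 bp upstream. The S15 gene bonsai was unbound, with a promoter peak of signal 27.2 in the full list of replicate 2 alone.

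The 21 unbound genes of that list include TFAM, which packages mitochondrial DNA, the elongation factors mEFTs and mEFG1, the initiation factor mIF3, the recycling factor mRRF1, the transcription factors mtTFB2 and mTTF, bsf, ClpX and ND-ACP. They also include the synthetases AlaRS-m, AsnRS-m, AspRS-m, GluRS-m, IleRS-m, MetRS-m, SerRS-m, TrpRS-m, TyrRS-m and ValRS-m. The E-box was again frequent, in 18 of the 35 promoters (51.4%), while 48.6% of the list had a divergent partner.

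The cytosolic ribosome gave another picture in share, strength and position. The 44 of 73 bound mitochondrial ribosomal protein genes (60.3%) stood against 77 of 93 bound cytosolic ones (82.8%). The cytosolic set was taken by symbol and includes paralogs and related genes. Among them RpL22-like, RpL24-like, RpL7-like, RpS28-like and RpS5b were unbound, and RpLP0-like and RpS5a were bound. The share without such genes was not computed. The median percentile was 43.5 for the mitochondrial and 62.9 for the cytosolic genes. Summits were a median of 120.5 bp from the start at mitochondrial and 38 bp at cytosolic ribosomal protein genes, and 90.9% of the mitochondrial but 45.5% of the cytosolic bound genes shared their peak. The 4 strongest mitochondrial genes, from 3411 at mRpL23 upward, were above the strongest cytosolic ones, RpS27 (1899) and RpL7 (1833). Genes of oxidative phosphorylation, whose products work beside those made by the mitochondrial ribosome, were bound at 36 of 76 (47.4%) with a median percentile of 45.6, led by ND-MWFE (1412) and ND-ASHI (1137), both subunits of complex I. The oxidative phosphorylation set was taken by symbol. It still holds COX6AL, COX6AL2, COX6CL, COX7AL2, ATPsynepsilonL, ND-51L1 and ND-51L2, whose symbols mark them as paralogs of other subunits. None of these was bound, so the share of the set would be higher without them. The values compared here are counts and medians beside each other, and no test of their differences was run.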

How the data were processed

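Binding of Xbp1-GFP was measured by ChIP-seq in 3 biological replicates, with chromatin sheared by sonication to 200 to 800 bp, per the labels. According to text lists that the authors deposited, the dm6 peaks of each replicate were derived from its alignment and 1 further file not described there, and the thresholded list from the pooled list and those of the 3 replicates. Which aligner and caller made them is not given in the sources used here. Each peak carries a signal value computed and deposited by the authors, whose scale is not stated. The −log10 of the q-value was also deposited by the authors. The dm3 lists were not used here.

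Summits were compared with the start sites of the Ensembl annotation (BDGP version 6.54, release 115) and with the Release 6 sequence from RefSeq. Signal was used only to rank or filter peaks within a list. No test was run over genes, and counts carry Clopper-Pearson exact 95% intervals beside the share of all protein-coding genes. Members, gene lists and motifs were chosen with earlier results of these data known. Of the listed names of mitochondrial translation, 5 matched no gene. Values in every list are given for the 10 strongest members, the members nearest the limit of 500 bp and the 3 bound members that differed most between replicates, and all unbound members are named. Other peak lists, distances, rules for giving peaks to genes and windows were tried. The giving of peaks to genes, the overlap of peaks and the percentiles were tested on simulated peaks. These lay at genes with a single start and no other start nearby. Shared peaks, divergent partners and motif searches were not tested in this way. Figures were drawn with Matplotlib 3.10.9, and values were computed with pandas 2.3.3, SciPy 1.17.1 and NumPy 2.4.6 under Python 3.11.15.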

Additional observations from a re-analysis of the deposited data

How the results depend on the processing

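The count of 44 bound members stayed within 1.5 times under most alternatives, with 55 in the pooled list at a q-value of 0.05 or less (39.8% of all genes), 34 at 200 bp (22.5%), 46 at 1000 bp (34.3%) and 44 with outermost starts only (28.1%). In the stronger 3645 thresholded peaks 25 members were bound (18.9% of all genes), 14 of them for the large subunit, 23 with a shared peak, and the median distance was 143 bp and the median percentile 46.1. With peaks given to the nearest gene only, 22 members were bound, 14 for the large and 8 for the small subunit, at a median distance of 73.5 bp and percentile of 35.8. This rule excludes sharing, so no count of shared peaks was made. A distance of 200 bp, which removes far neighbours, gave 22 shared peaks and a percentile of 40.9. The percentile was 50.1 in the pooled list at a q-value of 0.05 or less and 45.0 with outermost starts. The list of replicate 1 alone gave a distance of 139 bp, and that of replicate 3 alone 142 bp and a percentile of 45.2. For these shifts in distance and percentile the cause was not tested. Leaving out each replicate in turn gave 38 to 40 bound members, against 24.6% to 26.2% of all genes, from lists of 5521 to 6153 peaks, and a percentile of 36.7 to 39.5. It also gave 3 to 5 summits with ACGTG, a repeat chosen after seeing the data. With 100 bp to each side ACGTG was at 9 summits and TATCGATA at 5, the windows being longer. No paired analysis was possible because there was 1 group. Depth and the control sample were not analysed here, and an unbound gene is one under the threshold, not one shown to lack binding.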
